A study of Rattus norvegicus with 2 samples.

Results

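The genes described here handle zinc, copper and iron in cultured epidermal keratinocytes of newborn rats. They were chosen by symbol: every gene of the zinc transporter families Slc30 and Slc39 with a named probe, and 20 genes named singly for copper transport, iron transport and storage, metallothioneins and their regulators. This gave 42 of the 15037 named genes on the array, of which 22 were zinc transporters. The family members Slc39a10 and Slc39a13 had no named probe and were not analysed here.

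RNA was measured on whole-transcript oligonucleotide arrays, 1 array per group. The NC+VC group was the control, and in the siTet2/3+VC group siRNAs to Tet2 and to Tet3 had been transfected at 1 µM each. Cells of both groups grew in medium with serum and hydrocortisone and were given vitamin C for the last 12 h, 24 h having passed since transfection, so no culture without vitamin C enters these values. The control is labelled non-treated; whether it was given another siRNA, and how many animals the cells came from, is not said in the labels. No Tet gene had a named probe, so the size of the knockdown was not analysed here. With 1 array per group there is no replicate check and no p-value, so every difference below is one between 2 arrays.

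Zinc enters the cytosol through transporters of the Slc39 (ZIP) family and leaves it, to the outside or into vesicles, through the Slc30 (ZnT) family. Metallothioneins are small cysteine-rich proteins that bind surplus zinc and copper, and the zinc-sensing transcription factor Mtf1 turns on their genes through short metal response elements. Copper enters through Slc31a1 (Ctr1) and is passed by chaperones to enzymes and to the export ATPases, while iron enters with transferrin through the receptor Tfrc, is reduced in endosomes, and is stored in ferritin or exported by ferroportin. The skin depends on zinc supply: inherited loss of the intestinal importer SLC39A4 gives a disease with severe dermatitis. TET enzymes themselves hold iron at their active site, and vitamin C is known to keep that iron reduced.

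Across the 42 genes, 31 passed a background floor of 5.03 log2 units in 1 or both groups. The floor is the 95th percentile, over 1201 chemoreceptor genes, of the higher of the 2 signals of each gene. They were taken as a background set, and whether these cells express any of them was not tested. Of these 31, 2 were higher in siTet2/3+VC by 1.5-fold or more, 3 were lower by as much and 26 were neither. The 5 genes were the zinc importer gene Slc39a8 and the metalloreductase gene Steap2 on the higher side, and the copper importer gene Slc31a1 and the zinc importer genes Slc39a11 and Slc39a9 on the lower side. They made up 16.1%, while 21.9% of all 8128 named genes above the floor differed that much, 8.66% higher and 13.2% lower. At 1.5-fold the metal genes were thus not set apart from the rest of the array.

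The larger differences were few and went both ways. At 2-fold, 4 of the 31 passed (12.9%), against 4.92% of all genes above the floor. Measured against genes of like level, 2 of the 31, Slc39a8 and Slc31a1, lay at least 3 robust standard deviations from the local median, where 0.787% of all genes did. Both were already known from these arrays when the gene group was drawn up, so these shares describe the 2 arrays and support nothing about the group. The median difference of the 31 genes was -0.07 log2 units and that of all named genes above the floor -0.05.

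**Figure D1:**
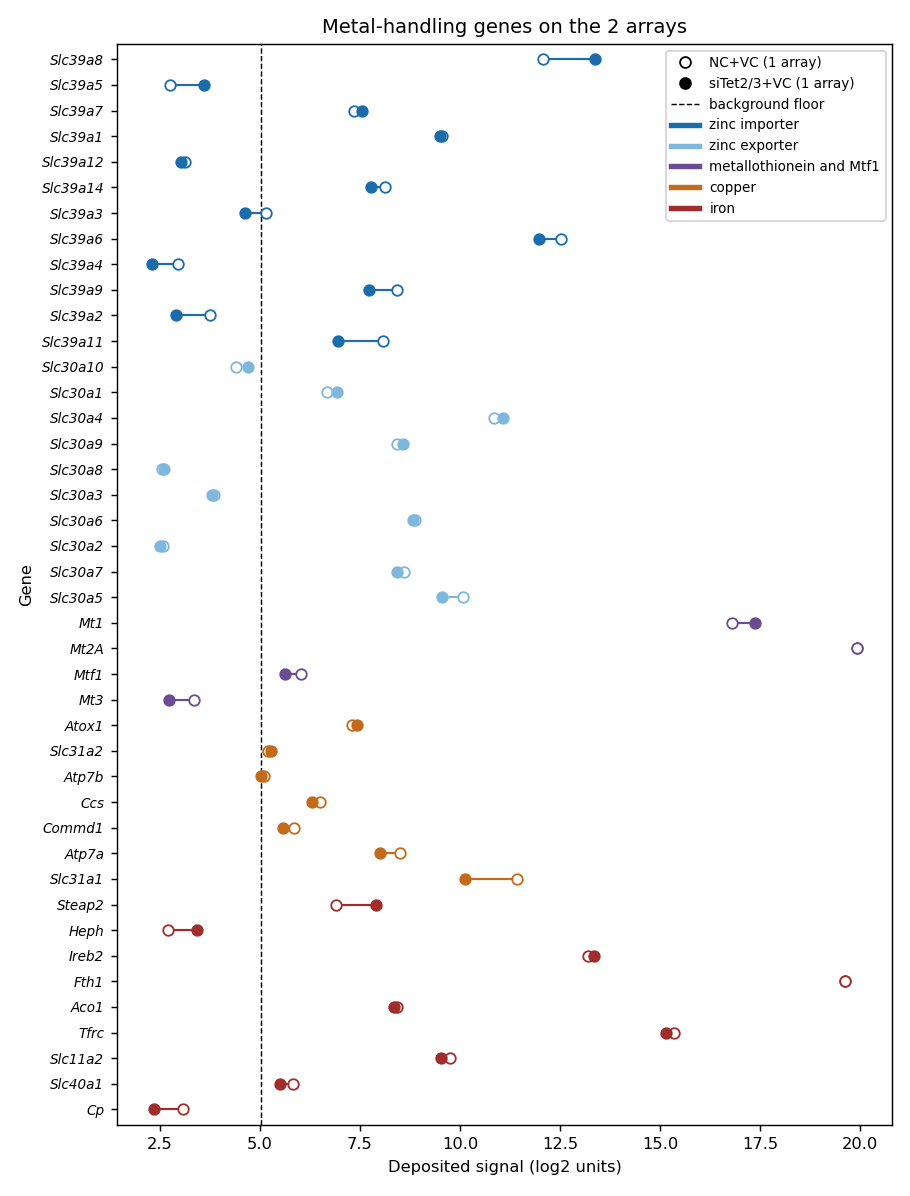
Deposited log2 signal (x axis) of the 42 metal-handling genes (y axis) on the NC+VC array (open circles) and the siTet2/3+VC array (filled circles), coloured by list, with the background floor of 5.03 as a dashed line. Most pairs of circles lie close together; Slc39a8 and Steap2 are displaced to the right on the siTet2/3+VC array, and Slc31a1 and Slc39a11 to the left.

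Of the 8 zinc importers above the floor, 3 passed 1.5-fold (37.5%, beside 21.9% of all genes), among them Slc39a8, which was known from these arrays beforehand. Slc39a8 encodes ZIP8, which carries zinc, manganese and iron into cells. It read 12.08 log2 units on the NC+VC array and 13.38 on the siTet2/3+VC array. The siTet2/3+VC array was the higher, by 1.30 log2 units or 2.46-fold. That placed Slc39a8 at rank 49 of the increases among 8128 genes, and only 2 of the 406 genes of like level, itself included, were as much higher. Both of its values lay above 8.31 log2 units, a stricter floor taken from the negative-control probes.

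The 250 bases before the RefSeq start of Slc39a8 (GRCr8, chr2:226929941-226930190, plus strand) and of Slc31a1 (chr5:80830590-80830839, plus strand) are shown because these genes differed most in opposite directions and TET enzymes act on cytosines in CpG pairs. Capitals mark each CpG; methylation was not measured on these arrays.
Slc39a8: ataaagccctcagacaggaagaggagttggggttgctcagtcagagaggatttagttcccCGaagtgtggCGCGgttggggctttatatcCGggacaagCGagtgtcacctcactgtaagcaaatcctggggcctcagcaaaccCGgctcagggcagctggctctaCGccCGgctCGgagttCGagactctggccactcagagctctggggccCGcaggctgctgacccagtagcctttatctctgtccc
Slc31a1: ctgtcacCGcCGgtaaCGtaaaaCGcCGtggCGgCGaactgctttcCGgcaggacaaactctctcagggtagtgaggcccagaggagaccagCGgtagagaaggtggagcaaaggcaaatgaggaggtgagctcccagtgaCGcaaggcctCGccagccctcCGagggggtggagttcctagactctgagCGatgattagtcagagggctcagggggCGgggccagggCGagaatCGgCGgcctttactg
The Slc39a8 window held 11 CpG and the Slc31a1 window 17, where the median was 17 over the windows of 6858 genes above the floor. The ratio of observed to expected CpG was 0.503 for Slc39a8 and 0.733 for Slc31a1, beside a median of 0.770 over those windows. The letters describe the sequence and say nothing of its methylation in these cells.

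The nearest gene to Slc39a8 with a named probe, in the RefSeq order, differed in the opposite direction. This was Nfkb1, which encodes an NF-kB subunit and read 9.53 and 8.76 log2 units, a difference of -0.77. Manba and Bank1, the other close neighbours with a named probe, were below the floor on both arrays.

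The lower importers are both known from internal membranes, among them the Golgi. Slc39a11 (ZIP11) read 8.08 log2 units on the NC+VC array and 6.96 on the siTet2/3+VC array, a difference of -1.12 or 2.17-fold lower. Slc39a9 (ZIP9) read 8.42 and 7.72, a difference of -0.70 or 1.62-fold lower. Slc39a9 was the gene closest to the limit from inside, and 38 of the 406 genes of its level were as much lower, so its difference was common at that level. For Slc39a11 it was 10 of 406. Slc39a11 lay below 8.31 on both arrays.

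The remaining importers above the floor stayed within 1.5-fold. Slc39a6 (ZIP6), a surface importer of epithelial cells, read 12.52 and 11.97 log2 units and fell just short of the limit at 1.47-fold lower. Slc39a14 (ZIP14), the closest relative of Slc39a8 and also a carrier of iron and manganese, read 8.12 and 7.78 and did not share the higher signal of Slc39a8; its difference of -0.34 was within the local spread of 0.42. Slc39a1 (ZIP1) read 9.54 and 9.51, and the endoplasmic reticulum importer Slc39a7 (ZIP7) 7.36 and 7.55. Slc39a3 read 5.15 on the NC+VC array and was below the floor on the siTet2/3+VC array, which bounds its fold at 1.09. The median difference of the 8 importers above the floor was -0.43, against -0.05 for all genes, and their mean was -0.22. Both importer values count Slc39a3 at its measured difference of -0.51, which uses the reading below the floor. Taking the floor in place of that reading gives Slc39a3 a difference of -0.12 and moves the importer median towards that of all genes. The median is therefore not read as a decrease shared by the importers.

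Of the zinc exporters, 0 of 6 above the floor passed 1.5-fold, beside 21.9% of all genes, a share at which a count of 0 among so few genes says little. Their median difference was 0.05. Slc30a1 (ZnT1), the exporter at the cell surface and a known target of Mtf1, read 6.66 and 6.93 log2 units. Slc30a4 (ZnT4), a vesicle exporter, read 10.84 and 11.08, and Slc30a9, a transporter of mitochondria, 8.42 and 8.57. These 3 were slightly higher on the siTet2/3+VC array. The genes of the secretory pathway, whose products load zinc into enzymes, also stayed within the limit: Slc30a5 read 10.06 and 9.55, its partner Slc30a6 8.88 and 8.83, and Slc30a7 8.61 and 8.43. Slc30a5 came nearest to the limit, at 1.43-fold lower, while Slc30a6 differed by -0.05, the median of all genes.

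**Figure D2:**
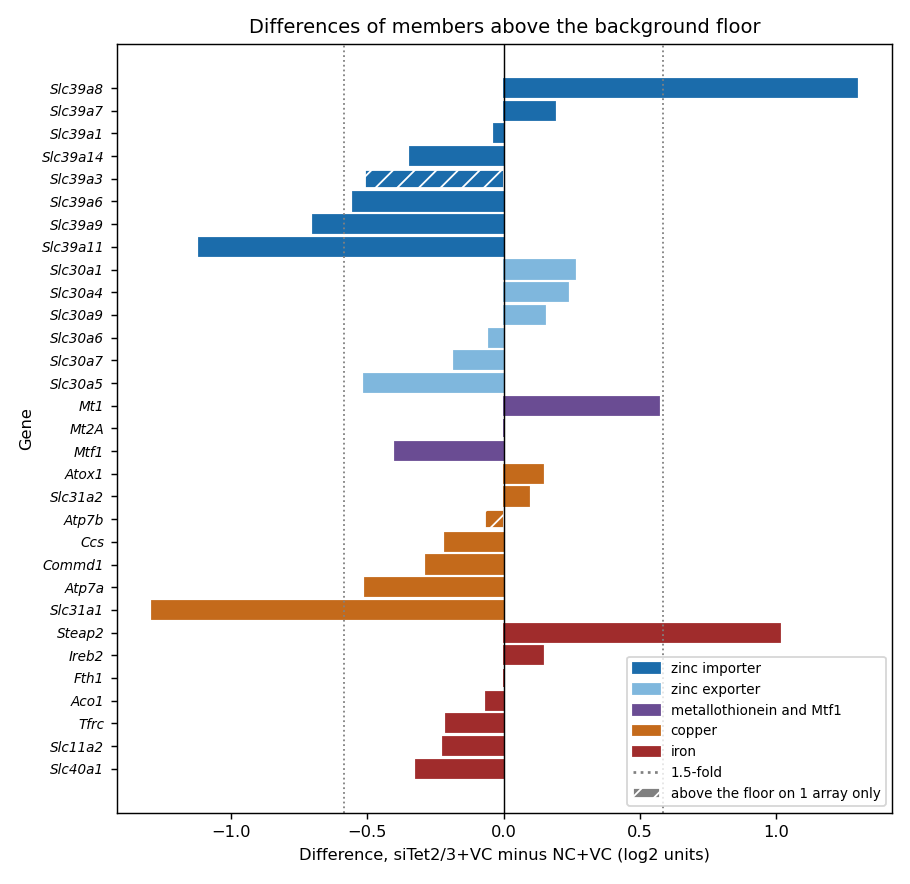
Difference in log2 signal, siTet2/3+VC minus NC+VC (x axis), of the 31 metal-handling genes above the floor (y axis), as bars coloured by list; dotted lines mark 1.5-fold and hatched bars mark genes above the floor on 1 array only. Slc39a8 (1.30) and Steap2 (1.02) pass the upper line, and Slc31a1 (-1.29), Slc39a11 (-1.12) and Slc39a9 (-0.70) the lower one.

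Of the metallothioneins, Mt1 and Mt2A were bright on both arrays. Mt1 read 16.81 log2 units on the NC+VC array and 17.38 on the siTet2/3+VC array. The siTet2/3+VC array was higher by 0.57 log2 units or 1.48-fold, just under the limit, and 11 of the 406 genes of like level were as much higher. With the differences centred on the median of all genes, Mt1 passed the limit at 0.62, and with the trend on level removed at 0.60. Mt2A read 19.93 in both groups, the top of the deposited scale, at which no difference can show. Mt2A is among the 406 genes counted as of like level with Mt1, so that set reaches the top of the scale. Mt3, known mainly from brain, was below the floor on both, as was Mt4, which is not in the group.

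Mtf1, the factor that reads zinc for these genes, read 6.02 and 5.62 log2 units, both below 8.31. Its difference of -0.40 was within the local spread of 0.54, so no direction is read from it. Mt1, Mt2A, Mt3 and Mt4 lie side by side in the RefSeq order, and Nup93, on the far side of Mt1, read 11.07 and 10.60. The metallothioneins are close in sequence and their probe sets may share signal; this was not tested.

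The windows of Mt1 (GRCr8, chr19:10832976-10833225, minus strand), Mt2A (chr19:10838709-10838958, minus strand) and the other classical Mtf1 target Slc30a1 (chr13:106021769-106022018, plus strand) are shown with the core of the metal response element in capitals, searched on both strands as TGCACNC or TGCGCNC.
Mt1: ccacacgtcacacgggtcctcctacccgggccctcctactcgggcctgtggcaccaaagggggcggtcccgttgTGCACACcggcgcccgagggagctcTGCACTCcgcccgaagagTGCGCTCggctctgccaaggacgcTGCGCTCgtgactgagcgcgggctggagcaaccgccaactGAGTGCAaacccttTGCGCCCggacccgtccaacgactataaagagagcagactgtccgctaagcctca
Mt2A: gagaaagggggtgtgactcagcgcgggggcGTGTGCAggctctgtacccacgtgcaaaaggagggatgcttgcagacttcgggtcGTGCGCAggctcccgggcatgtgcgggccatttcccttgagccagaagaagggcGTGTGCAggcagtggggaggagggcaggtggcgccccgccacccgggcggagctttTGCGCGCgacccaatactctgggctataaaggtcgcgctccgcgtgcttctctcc
Slc30a1: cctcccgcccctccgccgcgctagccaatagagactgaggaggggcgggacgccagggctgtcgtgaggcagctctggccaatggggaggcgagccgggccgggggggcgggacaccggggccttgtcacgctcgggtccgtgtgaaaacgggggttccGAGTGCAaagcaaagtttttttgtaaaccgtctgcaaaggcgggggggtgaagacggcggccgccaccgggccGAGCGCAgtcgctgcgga
The core stood 6 times in the Mt1 window, 4 times in that of Mt2A and 2 times in that of Slc30a1. The endoplasmic reticulum importer gene Slc39a7 had 4 matches, 2 of which overlap on opposite strands. Its 2 windows share most of their bases, and the same 4 matches lie in both. At least 4 matches were present in 0.266% of all 33469 windows of the same length and in 0.540% of the genes above the floor. At least 1 match was present for 16 of the 36 metal-handling genes with a window (44.4%), for 32.9% of the genes above the floor and in 20.6% of all windows. These shares are not of like sets: the 36 include genes below the floor and metallothionein genes that were chosen by name. Slc39a8 and Slc31a1 had no match, and Slc39a11 had 2, which overlap on opposite strands. The genes with matches differed in both directions on the arrays, from 0.57 for Mt1 to -1.12 for Slc39a11 among those above the floor. A match is a run of letters and was not tested as a binding site.

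Of the 7 copper genes, only the importer Slc31a1 passed 1.5-fold. Slc31a1 read 11.43 log2 units on the NC+VC array and 10.13 on the siTet2/3+VC array. It was lower there by 1.29 log2 units or 2.45-fold, at rank 64 of the decreases among 8128 genes, and 2 of the 407 genes of like level, itself included, were as much lower. Both values lay above the stricter floor of 8.31. Slc31a2, a related gene that acts in copper release from vesicles and lies close by with Fkbp15 between them, read 5.19 and 5.29, near the floor. Cdc26, the next gene on the other side, read 10.89 and 11.30, and Prpf4 after it 9.59 and 9.37. The lower signal of Slc31a1 was thus not matched in size by Cdc26 or Prpf4. Slc31a2 lay too near the floor to show such a decrease.

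The copper chaperones and exporters stayed within 1.5-fold. Atp7a, the ATPase that loads copper into secreted enzymes and exports it, read 8.51 log2 units on the NC+VC array and differed by -0.51 on the siTet2/3+VC array, 1.42-fold lower. Atp7b, its counterpart known best from liver, read 5.09 and 5.02, at the floor. Atox1, which carries copper to these ATPases, read 7.29 and 7.43, and Ccs, which carries it to superoxide dismutase, 6.51 and 6.29. Commd1, a factor of ATP7 traffic, read 5.85 and 5.57. All 7 copper genes passed the floor, and their median difference was -0.22. The 1 gene past 1.5-fold was a share of 14.3%, beside 21.9% of all genes.

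Of the 7 iron genes of the group above the floor, 1 passed 1.5-fold, or 14.3%, beside 21.9% of all genes. This was Steap2, which encodes a membrane reductase of iron and copper. It read 6.90 log2 units on the NC+VC array and 7.91 on the siTet2/3+VC array. The siTet2/3+VC array was higher by 1.02 log2 units or 2.02-fold, and 3 of the 407 genes of like level were as much higher. Both values lay below 8.31. Its neighbour and paralog Steap1 read 6.48 and 5.94, on the lower side.

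The genes of iron uptake and release were close between the arrays. Tfrc, the transferrin receptor, read 15.36 log2 units on the NC+VC array and 15.15 on the siTet2/3+VC array. Slc11a2 (DMT1), which moves iron out of endosomes, read 9.75 and 9.53. Slc40a1, which encodes ferroportin, the iron exporter, read 5.83 and 5.51. These 3 genes were 1.16-fold, 1.17-fold and 1.25-fold lower on the siTet2/3+VC array, differences smaller than the robust standard deviation of 0.45 log2 units over all genes above the floor.

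The sensors and the store of iron were also close. Ireb2 and Aco1 encode the iron regulatory proteins that bind ferritin and transferrin receptor mRNA when iron is low. Ireb2 read 13.21 and 13.36 log2 units and Aco1 8.42 and 8.35. Fth1, the ferritin heavy chain, read 19.64 on both arrays. Of the 26 named genes above 19 log2 units on the NC+VC array, 14 had equal values on both arrays, so a difference of Fth1 could hardly show, and ferritin heavy chain has many retrocopies that may share its probes. The ferroxidase genes Cp and Heph were below the floor. The median difference of the 7 iron genes above the floor was -0.06.

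**Figure D3:**
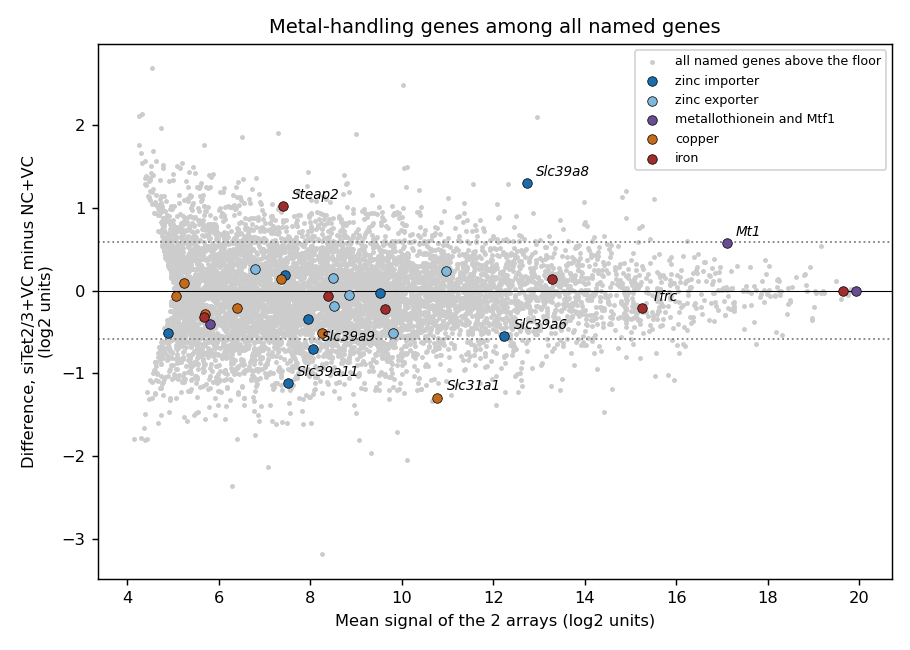
Difference in log2 signal, siTet2/3+VC minus NC+VC (y axis), against the mean signal of the 2 arrays (x axis), for the 8128 named genes above the floor (grey) and the 31 metal-handling genes (coloured by list); dotted lines mark 1.5-fold. Slc39a8 and Slc31a1 lie at the edge of the cloud at their level, and most other metal-handling genes lie inside it.

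The 11 genes below the floor on both arrays read between 2.31 and 4.70 log2 units. They were Slc39a2, Slc39a4, Slc39a5, Slc39a12, Slc30a2, Slc30a3, Slc30a8, Slc30a10, Mt3, Cp and Heph. Most are known from specialised tissues: Slc39a4 from gut, Slc30a8 from islets, Slc30a3 from brain and Cp from liver. As measured, 6 of the 11 differed by 1.5-fold or more, 2 higher and 4 lower, but differences at this level are not read as expression. With no floor, 1684 of all 15037 named genes were higher by as much and 1690 lower. The share over the genes below the floor alone was not counted, so the 6 are not set against a background.

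Other genes of metal handling were taken from a list of 93, of which 82 had a named probe and 60 passed the floor. Of these 60, 12 were at least 1.5-fold lower on the siTet2/3+VC array, 1 was higher and 47 were neither. Together that was 21.7%, against 21.9% of all genes, so the share was that of the background. The direction was mostly lower, and all genes leaned the same way, with 13.2% lower and 8.66% higher. The median difference of the 60 was -0.24, against -0.05 for all genes. The number on the higher side depended on the scaling, with 3 once differences were centred and 4 once their trend on level was taken out.

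In the iron part of that list, 2 of 21 were lower and 1 was higher, or 14.3%, beside 21.9% of all genes. Steap3, the main endosomal iron reductase, read 8.77 and 7.68 log2 units, 2.13-fold lower on the siTet2/3+VC array, while Steap2 was higher. Ncoa4, the receptor that delivers ferritin to lysosomes, read 12.01 and 11.37, 1.56-fold lower. Lcn2, which binds iron-carrying siderophores, read 11.32 and 11.92, 1.52-fold higher. The ferritin light chain gene Ftl1 read 18.01 and 17.97, and the haem oxygenase gene Hmox1, which frees iron from haem, 11.26 and 10.70.

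In the copper part, 4 of 28 were lower and 0 higher, or 14.3%, near the 13.2% of all genes that were lower. Loxl2, a copper-dependent lysyl oxidase, was below the floor on the siTet2/3+VC array and at least 1.74-fold lower. Commd9 and Commd6, relatives of Commd1, were 1.61-fold and 1.55-fold lower, and Cox17, the copper chaperone of cytochrome oxidase, read 11.38 and 10.75, 1.55-fold lower. Genes just short of the limit lay on both sides: the copper enzyme gene Sod1 read 10.37 and 9.80, 1.49-fold lower, and Cox19, a factor of cytochrome oxidase assembly, read 5.73 and 6.30, 1.49-fold higher. The median of the 28 was -0.24, near the -0.22 of the copper genes described above.

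Zinc-linked genes outside the transporter families were few. Of 4 above the floor, 2 were lower and 0 higher, a number too small to set against the shares of all genes, 13.2% lower and 8.66% higher. S100a8, part of the zinc-sequestering protein calprotectin, read 8.44 and 7.46 log2 units, 1.97-fold lower, while its partner S100a9 read 7.63 and 7.53. Car12 read 15.26 and 14.76, within the limit at 1.41-fold lower. Metap1, a methionine aminopeptidase that receives zinc from a chaperone, read 11.85 and 10.90, 1.93-fold lower. Among transporters of manganese, magnesium and related ions, 4 of 7 were lower and 0 higher, where 13.2% of all genes were lower and 8.66% higher; with so few genes the share is a description only. Atp2c1, the calcium and manganese pump of the Golgi, read 9.37 and 9.95, just short of the limit at 1.49-fold higher. Atp13a1 was 1.82-fold lower, Cnnm4 1.70-fold and Slc41a1 1.58-fold, and Cnnm3, below the floor on the siTet2/3+VC array, at least 1.82-fold lower.

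**Figure D4:**
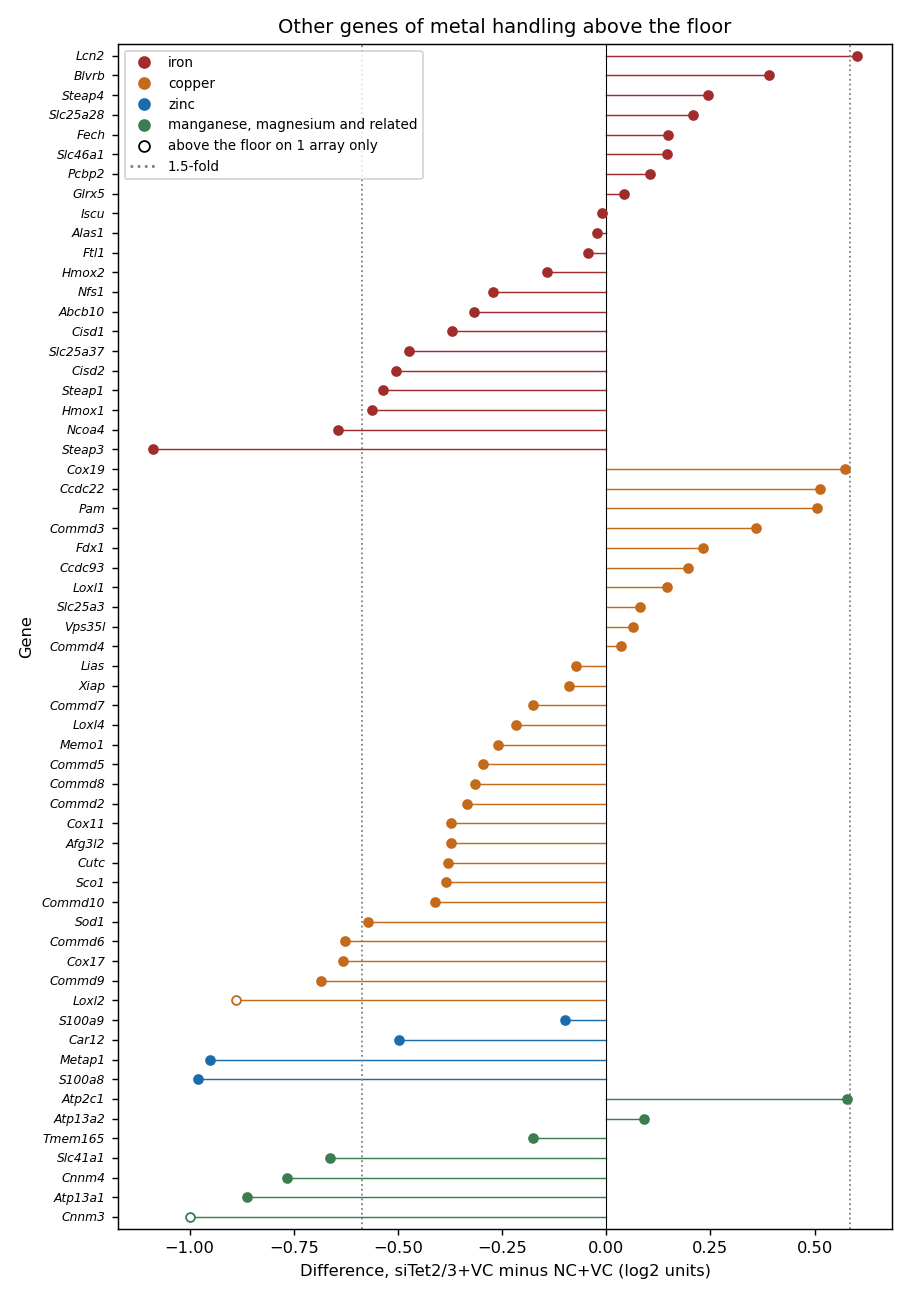
Difference in log2 signal, siTet2/3+VC minus NC+VC (x axis), of the 60 other metal-handling genes above the floor (y axis), coloured by metal; open circles mark genes above the floor on 1 array only and dotted lines mark 1.5-fold. Lcn2 passes the upper line, and 12 genes, led by Steap3, pass the lower one.

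The cultures carried the keratinocyte markers with a named probe: 5 of 5 were above the floor, among them Krt14, which read 18.54 and 18.70 log2 units, and Tp63, which read 13.15 and 12.75. Of the 6 fibroblast markers 0 passed the floor. Of the 14 melanocyte, immune, endothelial and muscle markers with a named probe, 4 passed: Mitf and Cd68 near the floor, Tek at 9.66 and 9.25, and Acta2 at 8.03 and 7.93. None of these 4 differed by 1.5-fold, and their part in the metal genes' differences was not tested. In bulk RNA, fewer cells of a type and less RNA per cell cannot be told apart.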

How the data were processed

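The authors deposited log2 signals of probe sets, in 1 table for both arrays. RMA and the Transcriptome Analysis Console are named in the submitters' processing notes, without versions; the genome build is not given in the sources used here. The deposited columns had medians of 4.85 (NC+VC) and 4.90 (siTet2/3+VC), so total RNA per cell cannot be compared, and values ended at 19.93. The number of arrays limits the precision.

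Of 23188 gene probes, 15049 had exactly 1 gene symbol in the platform annotation. The other 8139 had none or several, not counted apart, and were left out. All 15049 were found in RefSeq (GRCr8). They covered 15037 genes, with the mean over probes for the 10 genes with more than 1. Both columns used were matched to their samples by column name.

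The difference was siTet2/3+VC minus NC+VC, with no test. Genes counted were above the floor, set from 1201 chemoreceptor genes matched by symbol or synonym, and 1.5-fold apart. Where 1 value lay below the floor, the fold is the brighter value over the floor. Genes of like level are those in the same of 20 bins of the mean signal. The bins hold nearly equal numbers of genes and span unequal ranges of signal. Local spread is the scaled median absolute deviation within a bin. Named genes are every gene of the group and, of the other pathway genes, up to 4 per metal and direction. Sod1, Cox19, Atp2c1, Hmox1, Ftl1, S100a9, Car12, Steap1, gene neighbours and markers were added after their values were seen. The genes, lists and settings were chosen with earlier results of these data known.

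Promoter windows are the 250 bases before the start from RefSeq (GRCr8); 36 of the 42 genes matched, 3 of them with more than 1 window. The counting was tested on simulated data with planted 2-fold differences and less spread between arrays than seen here. That checks the counting and not how reliable a 1.5-fold difference is. Python 3.11.15, pandas 2.3.3, statsmodels 0.14.6 (lowess, span 0.3) and matplotlib 3.10.9 were used. Alternatives were other floors, centring, removal of the trend on level, the brightest probe, values raised to the floor, a 2-fold limit, 3 local robust SDs, means and another grouping of the metallothioneins.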

Additional observations from a re-analysis of the deposited data

How the results depend on the processing

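No paired analysis was possible because each group had 1 array. All 5 metal-handling genes past 1.5-fold kept their direction and stayed past it under centring and removal of the trend on level. Centring moves every gene by the same 0.05 log2 units. The brightest probe and values raised to the floor could not change these 5, as each has 1 probe and both values above the floor. Mt1 passed the limit when centred (0.62) or with the trend removed (0.60). Slc39a3, below the floor on the siTet2/3+VC array, came to -0.60 with the trend removed but to -0.12 with values raised to the floor. Counts of higher and lower genes moved by more than 1.5 times as follows. With no floor they were 4 and 7 of 42 metal-handling genes, 1684 and 1690 of all 15037 genes, and 4 higher among the other pathway genes. With the floor from negative-control probes they were 1 higher among 18 metal-handling genes, 248 and 453 of 4124 genes, and 6 lower among 30 other pathway genes. With a 2-fold limit they were 151 and 249 of 8128 genes and 0 and 1 of the other pathway genes. With 3 local robust SDs they were 1 and 1 of the metal-handling genes, 27 and 37 of all genes, and 0 and 0 of the other pathway genes. Higher pathway genes numbered 3 when centred and 4 with the trend removed. Over all genes, higher and lower came to 850 and 905 when centred, against 704 and 1073. List medians moved by over 0.1 log2 units in 6 of 40 comparisons. The copper median was -0.36 with a floor 1 log2 unit higher and -0.90 with the floor from negative-control probes, where few copper genes remained. The median of metallothioneins and Mtf1 was -0.20 with no floor and 0.28 with either higher floor. The iron mean was 0.049 against a median of -0.06. With 1 array per group, signal over background limits what can be read near the floor, and no setting replaces a replicate.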
